A study of Mus musculus with 4 samples.

Results

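The genes described are 10 that encode microtubule-associated proteins and stathmins, taken by name from 29224 genes in the deposited tables: Map2, Mapt, Map1a, Map1b, Dcx, Dclk1, Stmn1, Stmn2, Stmn3 and Stmn4. Each name matched a single gene, and 10 of 10 passed the filter on low counts. RNA was sequenced from cells that anti-GLAST (ACSA-1) magnetic beads had pulled from the cerebral cortex of P5 mice. The Ezh2 f/f animals (controls) had floxed Ezh2 alleles and no Cre is named for them, while the Ezh2 cKO animals (Ezh2-cKO-Aldh1l1) had Aldh1l1-iCre besides, a recombinase driven by an astrocyte gene, in order to delete from astrocytes the enzyme that places H3K27me3 on chromatin. There were 2 libraries per group. The methods name C57BL/6J and ICR (CD1) mice without saying which these were, and how many animals stand behind a library is not given in the sources used here, so p-values measure only the spread between these libraries.

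Microtubules are hollow polymers of tubulin that grow and shrink at their ends. Structural microtubule-associated proteins bind along the polymer, and tau (Mapt) is classically a protein of axons, MAP2 of dendrites, MAP1B of young growing neurons and MAP1A of more mature ones. Doublecortin (Dcx) and its relative DCLK1, which joins doublecortin domains to a kinase, bind microtubules in migrating and differentiating neurons, while stathmins bind free tubulin and favour the shrinking of microtubules. In the brain these genes are known mainly from neurons, with Stmn1 also used by dividing cells.

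In Ezh2 cKO the 10 genes did not move as a block. Map1a rose 4.62-fold, Dclk1 2.43-fold and Stmn4 2.36-fold, Stmn3, Map2 and Stmn2 rose by 1.60-fold or less, and Map1b rose 1.13-fold with a call that depended on the settings. Dcx fell to a level 2.81-fold lower and Mapt to a level 1.64-fold lower, and Stmn1 did not pass the test. In edgeR's quasi-likelihood test at an adjusted p under 0.05, 7 of the 10 were higher and 2 lower, against a background of 34.7% higher and 33.6% lower among 16793 genes tested, so 68.4% of all tested genes passed in either direction. The CPM values (counts scaled to library size and TMM factor) of the groups did not overlap for 9 of the 10 genes, and for 84.3% of all genes tested. The median log2 fold change of the 10 genes was 0.50, beside 0.02 over all genes tested, whose middle 50% lay between -0.64 and 0.76.

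**Figure D1:**
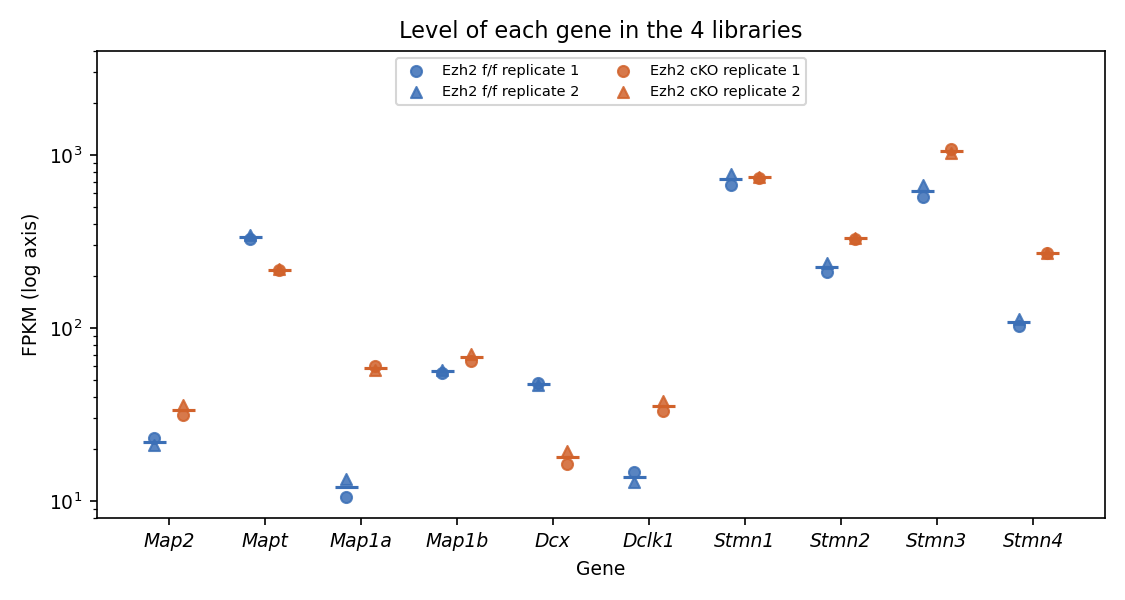
FPKM of each gene (log axis) in each of the 4 libraries, with Ezh2 f/f in blue, Ezh2 cKO in orange, circles for replicate 1, triangles for replicate 2 and a bar at each group's mean. Map1a is the lowest gene in Ezh2 f/f and the seventh in Ezh2 cKO, Dcx moves the opposite way to the last place, and the groups overlap for Stmn1.

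The libraries held between 16273308 and 17522152 counts. The 10 genes had between 2263 and 43248 counts in a library, where counting error is at most 2.10% of the value. The spread between replicates (SD) reached 17.2% of the mean CPM, for Map1a in controls, and for Stmn1 and Stmn2 in Ezh2 cKO it was smaller than counting error. The targeted gene, Ezh2, was counted 434 and 327 times in controls and 211 and 164 times in Ezh2 cKO (log2 fold change -1.11, standard error 0.16). The label of the cells was checked against markers. In controls the 12 astrocyte markers summed to between 98.6 and 99.8 FPKM (counts per gene length and library total, as deposited). In Ezh2 cKO they summed to between 480 and 536, with 10 higher and 0 lower. Aldh1l1, after which the Cre is named, was not called (log2 fold change -0.15, edgeR adjusted p = 0.175). Nor was Sox9 (-0.06, edgeR adjusted p = 0.758). Slc1a3, the gene for GLAST itself, was at 11.1 and 11.6 FPKM in controls and 36.1 and 36.5 in Ezh2 cKO, and Aqp4, a water channel of astrocytes, was at 0.75 and 0.51 and then 13.7 and 15.2. By summed FPKM, neuronal markers were more abundant than the astrocyte list. The 14 mature neuron markers summed to between 337 and 374 FPKM in controls and between 1697 and 1701 in Ezh2 cKO. Of them 12 were higher and 0 lower. The 14 immature neuron markers summed to between 3792 and 3970 and between 2837 and 2855, with 2 higher and 10 lower. A large part of that sum was Tubb3 alone, at 1859 and 1897 FPKM in controls and 1223 and 1207 in Ezh2 cKO. Of 9 progenitor markers 2 were higher and 7 lower (summed FPKM between 91.8 and 93.1 against between 61.1 and 62.8), of 11 cycling markers 0 and 7, of 10 microglia markers 10 and 0 (between 59.5 and 60.0 against between 147 and 168), and of 7 endothelial markers 3 and 1. In each list 0 markers were at 0 throughout. The marker levels differed between the same groups, some lists upward and others downward, and their part in each result below was not tested. In bulk RNA, fewer cells of a type and less RNA per cell cannot be told apart.

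To show where the genes with the largest changes begin, the 300 bases around their start sites (250 before, 50 after) are given from RefSeq on GRCm38.p6, 5′ to 3′, with CpG dinucleotides in capitals, because CpG-dense starts are where PRC2, the complex that holds EZH2, is commonly found. H3K27me3 at these windows was not analysed here. Windows matched 6 of the 10 genes (Map2, Map1a, Map1b, Dcx, Dclk1 and Stmn3). Map1a is the gene with the largest rise, Dcx the gene with the largest fall, and Dclk1 has 2 start sites whose products a count per gene cannot separate.
Map1a, chr2:121289352-121289651, plus strand: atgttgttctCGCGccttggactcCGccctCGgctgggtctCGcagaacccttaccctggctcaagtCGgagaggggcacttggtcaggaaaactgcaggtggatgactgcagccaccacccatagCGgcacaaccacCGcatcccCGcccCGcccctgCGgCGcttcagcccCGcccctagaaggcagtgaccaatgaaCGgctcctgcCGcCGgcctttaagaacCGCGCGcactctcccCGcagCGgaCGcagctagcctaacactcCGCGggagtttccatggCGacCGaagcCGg
Dcx, chrX:143933170-143933469, minus strand, the more upstream start: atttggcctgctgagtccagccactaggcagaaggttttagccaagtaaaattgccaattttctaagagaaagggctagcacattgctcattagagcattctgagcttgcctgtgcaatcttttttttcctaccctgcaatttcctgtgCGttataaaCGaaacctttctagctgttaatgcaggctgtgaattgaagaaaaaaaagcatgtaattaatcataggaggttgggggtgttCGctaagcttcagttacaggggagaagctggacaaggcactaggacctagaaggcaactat
Dclk1, chr3:55242114-55242413, plus strand, the more upstream start: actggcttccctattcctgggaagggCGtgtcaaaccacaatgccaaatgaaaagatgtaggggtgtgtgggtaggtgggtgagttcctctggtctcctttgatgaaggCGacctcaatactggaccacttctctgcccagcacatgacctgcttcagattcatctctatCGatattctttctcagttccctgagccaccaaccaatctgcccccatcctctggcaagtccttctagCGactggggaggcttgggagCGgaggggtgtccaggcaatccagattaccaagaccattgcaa
Dclk1, chr3:55461478-55461777, plus strand, the more downstream start: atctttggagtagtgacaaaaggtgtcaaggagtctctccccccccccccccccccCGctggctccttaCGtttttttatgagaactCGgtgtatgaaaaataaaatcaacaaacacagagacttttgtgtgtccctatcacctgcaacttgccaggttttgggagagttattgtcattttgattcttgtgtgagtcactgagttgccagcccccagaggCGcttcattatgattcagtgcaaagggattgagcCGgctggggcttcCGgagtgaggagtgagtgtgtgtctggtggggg
The Map1a window holds 27 CpG, a number that 15.5% of 32851 windows of this length reach, and the Dcx window holds 3, which 76.7% reach. The Dclk1 windows hold 5 and 6 CpG, reached by 62.0% and 56.4% of windows, where the median is 7. Among the others, the Map2 window holds 37 CpG (reached by 5.58%), that of Map1b 23 (21.5%) and that of Stmn3 6 (56.4%). The letters GGGCGG, the GC box, were found on either strand in 3 of the 8 windows of these genes, those of Map2, Map1a and Map1b, and in 35.7% of all windows, and CAGCTG, an E-box, in 0 of the 8 and in 16.3% of all. The 3 genes with GC boxes were higher in Ezh2 cKO, by a log2 fold change of 0.53 for Map2, 2.21 for Map1a and 0.18 for Map1b. So were Dclk1 (1.28) and Stmn3 (0.68), whose windows hold none. Dcx, whose windows hold none either, was lower (-1.49). The call of Map1b held in only 5 of 13 alternative analyses. Of all genes tested, 34.7% were higher and 33.6% lower, and a link between these windows and the changes was not tested.

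Map1a (ENSMUSG00000027254) lies at 121120081 to 121141313 of chromosome 2 (plus strand). Coordinates of genes are printed as deposited. The submitters' processing notes name mm9, and none of the 10 genes has the coordinates that RefSeq gives on GRCm38.p6, so the build of the gene coordinates is uncertain and they must not be combined with the windows above. Map1a was counted 2263 and 2658 times in controls against 12706 and 11644 times in Ezh2 cKO, or 10.6 and 13.4 FPKM against 60.3 and 57.4 FPKM. Both Ezh2 cKO libraries lay far above both Ezh2 f/f libraries. The level rose from 151 ± 25.9 to 696 ± 34.4 CPM (SD, n = 2 per group), which is 2.21 as a log2 fold change (standard error 0.11, edgeR adjusted p = 1.02e-09). Of the genes tested, 854 had a larger log2 fold change. The gene overlaps Ppip5k1, a protein-coding gene on the other strand counted 449 and 427 times in controls and 823 and 739 times in Ezh2 cKO. Use of strand in the counting is not given in the sources used here, so some reads of the pair could be exchanged. The counts of Ppip5k1 were 17.8% of those of Map1a in controls and 6.41% in Ezh2 cKO.

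Map1b (ENSMUSG00000052727), at 99557954 to 99653048 of chromosome 13 (minus strand), encodes the relative of MAP1A that is known from growing axons. It was counted 15305 and 14790 times in controls against 17711 and 18660 times in Ezh2 cKO, or 55.1 and 57.4 FPKM against 64.5 and 70.6 FPKM. The groups did not overlap, but the gap was small. The log2 fold change was 0.18 (standard error 0.07, edgeR adjusted p = 0.0449, with adjusted p between 0.00415 and 0.226 over the alternatives), and the gene passed the threshold in 5 of 13 alternative analyses. Leaving out Ezh2 f/f replicate 1 ended the call (0.14, edgeR adjusted p = 0.0681), as did leaving out Ezh2 f/f replicate 2 (0.20, adjusted p = 0.0625) or Ezh2 cKO replicate 2 (0.13, adjusted p = 0.226). The ratio of Map1a to Map1b, which does not depend on the scaling between libraries, was 0.193 and 0.234 in controls and 0.934 and 0.813 in Ezh2 cKO on the FPKM scale. Map1a was far below Map1b in controls and close to it in Ezh2 cKO.

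Map2 (ENSMUSG00000015222) lies at 66214432 to 66481742 of chromosome 1 (plus strand). It was counted 6639 and 5616 times in controls against 8968 and 9851 times in Ezh2 cKO, or 23.0 and 21.0 FPKM against 31.4 and 35.9 FPKM. Both Ezh2 cKO libraries were above both Ezh2 f/f libraries. The log2 fold change was 0.53 (standard error 0.09, edgeR adjusted p = 9.52e-05).

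Mapt (ENSMUSG00000018411), the gene of tau, at 104122216 to 104222916 of chromosome 11 (plus strand), took more counts than any other of the 10 genes in Ezh2 f/f. It was counted 43248 and 42446 times there against 28228 and 27428 times in Ezh2 cKO, or 328 and 346 FPKM against 216 and 218 FPKM. Both Ezh2 cKO libraries were below both Ezh2 f/f libraries, in the opposite direction to Map2, Map1a and Map1b. The level fell from 2617 ± 120 to 1592 ± 12.7 CPM (SD, n = 2 per group), which is -0.72 as a log2 fold change (standard error 0.07, edgeR adjusted p = 4.04e-07). Tau and MAP2 are each made in splice forms that change as neurons mature. These counts sum over the forms and say nothing of their proportions.

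Mapt nevertheless remained the most abundant of the 4 structural genes per length. It held 78.7% and 79.1% of their summed FPKM in controls and 58.1% and 57.1% in Ezh2 cKO. The mean share of Map1a was 2.81% in controls and 15.6% in Ezh2 cKO. That of Map1b was 13.2% and 17.9%, and that of Map2 5.16% and 8.92%. The groups were separate for each of the 4 shares, as were the CPM values of 84.3% of all genes tested. The summed FPKM of the 4 was 427 ± 15.3 in controls and 377 ± 6.90 in Ezh2 cKO (SD, n = 2 each).

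**Figure D2:**
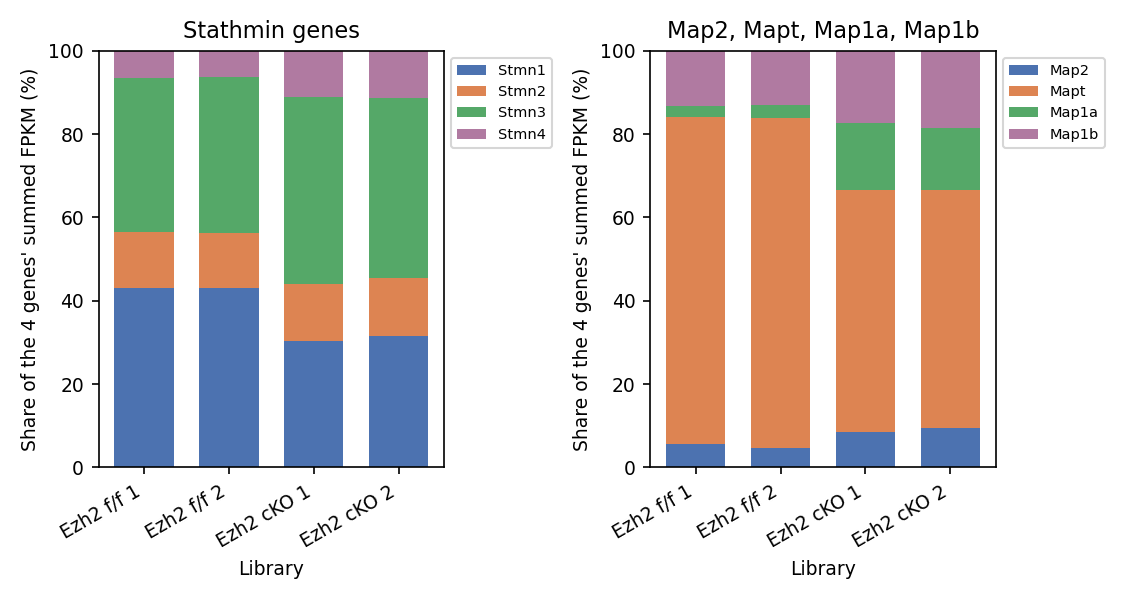
Share of each gene in the summed FPKM (%) of the stathmin genes (left) and of Map2, Mapt, Map1a and Map1b (right), with 1 bar per library. Stmn1 holds 43.0% and 43.1% of the stathmins in Ezh2 f/f against 30.4% and 31.6% in Ezh2 cKO, and Mapt 78.7% and 79.1% of the structural genes against 58.1% and 57.1%.

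Dcx and Dclk1 went in opposite directions. Dcx (ENSMUSG00000031285), at 142638838 to 142716307 of chromosome X (minus strand), was counted 10667 and 9611 times in controls against 3591 and 4096 times in Ezh2 cKO, or 48.1 and 46.7 FPKM against 16.4 and 19.4 FPKM. Both Ezh2 cKO libraries lay well below both Ezh2 f/f libraries. The level fell from 618 ± 9.12 to 220 ± 23.1 CPM (SD, n = 2 per group), which is -1.49 as a log2 fold change (standard error 0.09, edgeR adjusted p = 6.76e-09), and 1076 tested genes had a lower log2 fold change. Dclk1 (ENSMUSG00000027797), at 55149785 to 55446489 of chromosome 3 (plus strand), was counted 3926 and 3206 times in controls against 8795 and 9632 times in Ezh2 cKO, or 14.6 and 12.9 FPKM against 33.2 and 37.8 FPKM. Both Ezh2 cKO libraries lay well above both Ezh2 f/f libraries, and the log2 fold change was 1.28 (standard error 0.09, edgeR adjusted p = 3.46e-08). Of the summed FPKM of the pair, Dcx held 76.7% and 78.4% in controls and 33.1% and 34.0% in Ezh2 cKO, where Dclk1 was the more abundant gene. The sum itself was 61.2 ± 2.27 FPKM in controls and 53.4 ± 5.38 in Ezh2 cKO (SD, n = 2 each). The fall of Dcx stands beside the fall of 10 of 14 immature neuron markers, and whether these have a part in it was not tested.

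Of the 4 stathmin genes 3 rose, in different measure, and Stmn1 did not pass the test. Stmn4 (ENSMUSG00000022044), at 66581745 to 66599129 of chromosome 14 (plus strand), encodes a stathmin of neurons. It was counted 3466 and 3527 times in controls against 8970 and 8676 times in Ezh2 cKO, or 103 and 113 FPKM against 270 and 272 FPKM. The groups were far apart, and the log2 fold change was 1.24 (standard error 0.09, edgeR adjusted p = 2.35e-08). Stmn3 (ENSMUSG00000027581), at 180948252 to 180956293 of chromosome 2 (minus strand), encodes a membrane-anchored neuronal stathmin. It was counted 11392 and 12405 times in controls against 21349 and 19370 times in Ezh2 cKO, or 572 and 671 FPKM against 1084 and 1022 FPKM. The groups did not overlap, and the log2 fold change was 0.68 (standard error 0.09, edgeR adjusted p = 1.06e-05). Stmn2 (ENSMUSG00000027500), at 8574420 to 8626666 of chromosome 3 (plus strand), encodes SCG10, a stathmin of growing axons. It was counted 20724 and 21696 times in controls against 31675 and 31023 times in Ezh2 cKO, or 211 and 238 FPKM against 326 and 332 FPKM. The groups did not overlap, and the log2 fold change was 0.47 (standard error 0.08, edgeR adjusted p = 8.33e-05).

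Stmn1 (ENSMUSG00000028832), at 134195631 to 134201154 of chromosome 4 (plus strand), encodes the cytosolic stathmin. It was counted 22491 and 24255 times in controls against 24451 and 24029 times in Ezh2 cKO, or 668 and 775 FPKM against 734 and 750 FPKM. In FPKM, both Ezh2 cKO libraries lay between the Ezh2 f/f libraries. The log2 fold change was -0.04, with a 95% interval from -0.22 to 0.13 (edgeR adjusted p = 0.639, between 0.0233 and 0.919 over the alternatives). Its sign changed with the scaling of the libraries, and without Ezh2 f/f replicate 1 it was called lower (-0.16, edgeR adjusted p = 0.0233). The summed FPKM of the stathmins was 1676 ± 172 in controls and 2395 ± 27.9 in Ezh2 cKO (SD, n = 2 each). Within it the share of Stmn1 was 43.1 ± 0.126% in controls against 31.0 ± 0.819% in Ezh2 cKO (SD, n = 2 each). The share of Stmn3 was 37.1 ± 0.362% against 44.0 ± 1.32%, and that of Stmn4 was 6.47 ± 0.246% against 11.3 ± 0.172%. Stmn2 held 13.4 ± 0.242% against 13.7 ± 0.330%, with overlapping groups.

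**Figure D3:**
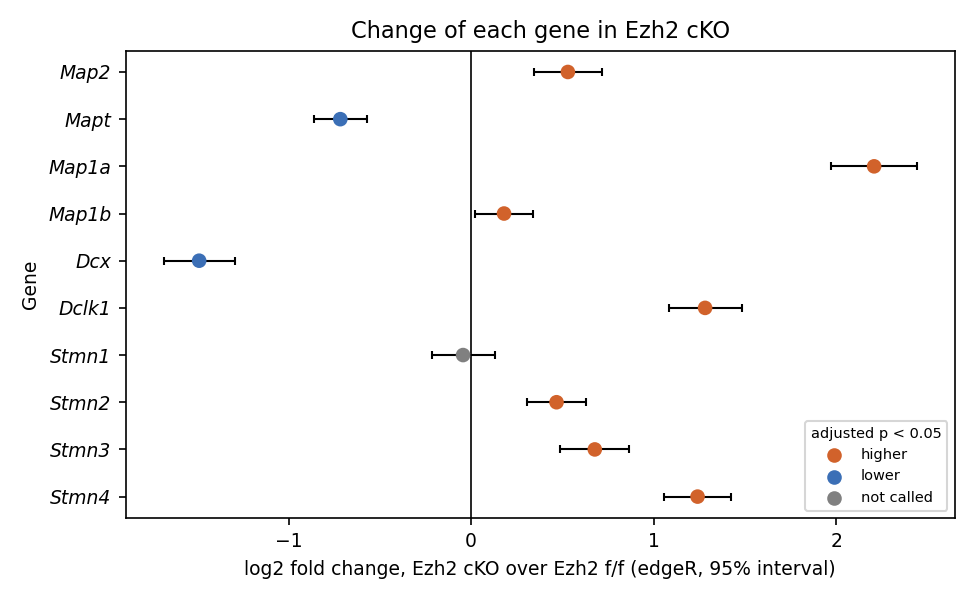
Log2 fold change of each gene in Ezh2 cKO over Ezh2 f/f (points, edgeR) with its 95% interval (bars), coloured by the call at an adjusted p under 0.05. Map1a stands highest at 2.21 and Dcx lowest at -1.49, the interval of Stmn1 spans 0, and that of Map1b starts just above it.

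Ranked by FPKM, which allows genes of different length to be compared, the order of the 10 genes differed between the groups. In controls the order from the top was Stmn1, Stmn3, Mapt, Stmn2, Stmn4, Map1b, Dcx, Map2, Dclk1 and Map1a. The libraries of Stmn1 and Stmn3 overlapped there, as did those of Dclk1 and Map1a, and the other neighbours were separate. In Ezh2 cKO the order was Stmn3, Stmn1, Stmn2, Stmn4, Mapt, Map1b, Map1a, Dclk1, Map2 and Dcx, and of the neighbours Dclk1 and Map2 overlapped. Stmn3, at 1053 ± 43.9 FPKM in Ezh2 cKO (SD, n = 2), ranked number 18 among all genes in the table, from number 36 in controls. Map1a went from number 4255 to number 919, and Dcx from number 1214 to number 3070. The FPKM values imply gene lengths from 1.14 kb for Stmn3 to 16.5 kb for Map2, and levels between genes rest on those lengths.

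Ratios within a library were compared for 7 pairs of these genes, because a ratio cannot be moved by the scaling between libraries. For each pair the libraries of the groups were separate. The pairs were chosen with results known, and the CPM values of 84.3% of all genes tested did not overlap either. Separation alone therefore does not set these pairs apart. With 2 libraries per group the exact permutation test has 6 arrangements, so its smallest two-sided p is 0.333, and each of the 7 pairs gave p = 0.333 (exact permutation test, also 0.333 after adjustment). Dclk1 to Dcx differed most, with 0.304 and 0.276 in controls and 2.03 and 1.94 in Ezh2 cKO, or 6.85-fold. Map2 to Dcx was 0.478 and 0.449 against 1.92 and 1.85, or 4.06-fold. Both pairs thus lay below equal levels in controls and above them in Ezh2 cKO. Stmn3 to Stmn1 did so as well, with 0.857 and 0.865 against 1.48 and 1.36. Stmn4 to Stmn1 was 0.155 and 0.146 against 0.368 and 0.362. Stmn2 to Stmn1 was 0.316 and 0.307 against 0.444 and 0.443. The ratio of Mapt to Map1b was lower in Ezh2 cKO, at 5.95 and 6.04 against 3.35 and 3.09. These ratios are of FPKM, and whether a ratio passes equal levels rests on the gene lengths. On counts, Stmn3 to Stmn1 stayed below equality, at 0.507 and 0.511 in controls against 0.873 and 0.806 in Ezh2 cKO. Stmn2 to Stmn1 passed equality on counts, at 0.921 and 0.894 against 1.30 and 1.29.

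**Figure D4:**
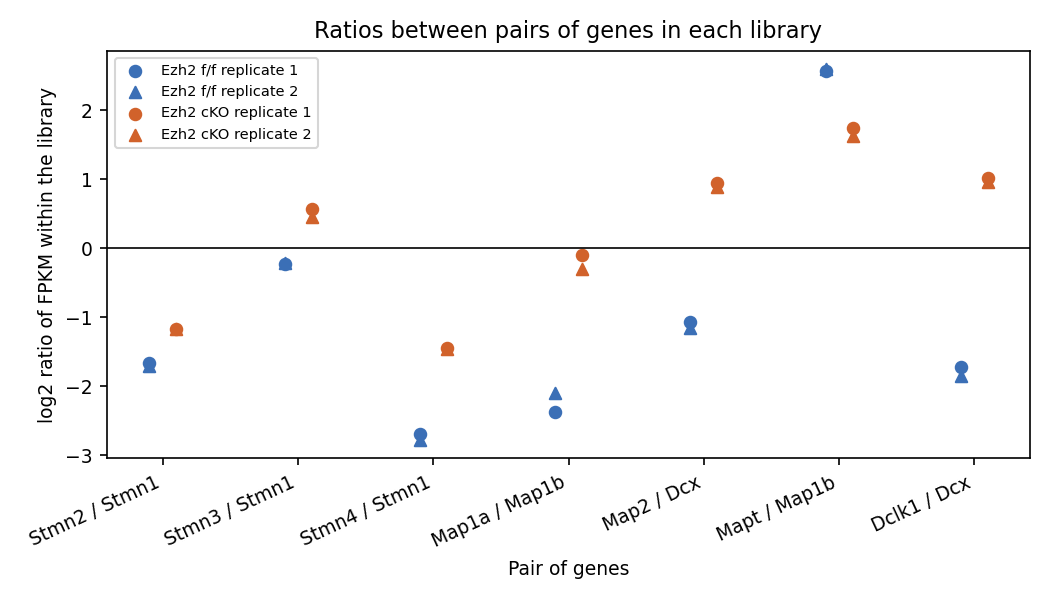
Log2 ratio of FPKM between 2 genes within each library for 7 pairs, with Ezh2 f/f in blue and Ezh2 cKO in orange, and the line at 0 marking equal levels. Dclk1 to Dcx, Map2 to Dcx and Stmn3 to Stmn1 lie on opposite sides of the line in the groups, and Mapt to Map1b is lower in Ezh2 cKO.

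The other genes that act on microtubules were divided by role into 8 lists with 149 genes, of which 147 were tested. Together 50 were higher (34.0%) and 62 lower (42.2%), beside the 34.7% and 33.6% of all genes, with a median log2 fold change of -0.10. The medians of the lists ran from -0.97 to 0.83.

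Among 18 tested structural proteins other than those above, 8 were higher and 5 lower, with a median log2 fold change of 0.12. Tppp, a tubulin-polymerising protein best known from oligodendrocytes, went from 2.37 and 2.29 FPKM to 22.8 and 23.1 FPKM (log2 fold change 3.21, edgeR adjusted p = 3.40e-11). Map6d1, a relative of the stabilising protein MAP6, had a log2 fold change of 3.36. Mtus1 (-1.30) and Map10 (-1.57) were lower. The rise of Tppp stands beside that of the 11 oligodendrocyte lineage markers, of which 11 were higher and whose summed FPKM was between 63.1 and 65.4 in controls and between 254 and 291 in Ezh2 cKO. Their part in it was not tested, and the summed FPKM of the astrocyte, mature neuron and microglia lists was higher in Ezh2 cKO too. In the doublecortin family 3 of 4 tested genes were higher and 1 lower. Dclk2, the closest relative of Dclk1, was the lower one, with 37.7 and 37.9 FPKM in controls and 16.1 and 16.3 in Ezh2 cKO (log2 fold change -1.31, edgeR adjusted p = 1.07e-08), the direction of Dcx and opposite to Dclk1. Dcdc2a (1.05) and Dcdc2b (1.44) were higher at levels below 4 FPKM.

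Proteins of microtubule ends were split, with 8 higher and 9 lower of 21 (median -0.18). Apc (1.37) and Clasp2 (1.03), which act at plus ends, were higher, but other plus-end genes were lower, such as Mapre1, the gene of the end-binding protein EB1 (-0.77), and Clip2 (-0.79). Of the genes of minus-end-binding proteins, Camsap1 (-1.40) and Camsap3 (-1.05) were lower, and Camsap2 was not called (-0.13, edgeR adjusted p = 0.262). Tubulin-modifying and severing enzymes had 6 higher and 12 lower of 23 (median -0.56). The lower ones included Ttll3, a tubulin glycylase, which went from 16.6 and 15.6 FPKM to 2.86 and 2.64 FPKM (log2 fold change -2.63, edgeR adjusted p = 2.16e-10), and Vash2, which removes the terminal tyrosine of tubulin (-2.49). Ttll7, a glutamylase (2.46), and Sirt2, a deacetylase that acts on tubulin (1.22), were higher.

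Kinases and phosphatases of these proteins had 8 higher and 10 lower of 23 (median -0.06). Cdk5r2, an activator of the tau kinase CDK5, went from 51.3 and 72.4 FPKM to 288 and 266 FPKM (log2 fold change 2.08, edgeR adjusted p = 1.00e-08). Cdk5r1, another activator of CDK5, was lower, from 94.5 and 82.2 FPKM to 63.4 and 70.8 FPKM (-0.48, edgeR adjusted p = 0.000359). The calcineurin subunit gene Ppp3ca was higher by 1.15. Brsk2 (-0.93) and Mark3 (-0.88), kinases of tau and its relatives, were lower. Transport kinesins had 10 higher and 1 lower of 18 (median 0.30), led by Kif5a, a kinesin of neurons (1.12), and Kifap3, an adaptor of kinesin-2 (0.98), and the lower one was Kif21b (-0.30), which missed the threshold without Ezh2 cKO replicate 2 (-0.23, edgeR adjusted p = 0.0525). The dynein and LIS1 list was even, with 6 higher and 6 lower of 16 (median 0.10). The light chains Dynll1 (2.02) and Dynlt3 (1.70) were higher but the light chain Dynlrb1 was lower (-0.34). The heavy chain Dync1h1 (-0.77) and the dynactin subunit Dctn1 (-0.57) were lower, while the intermediate chain Dync1i1 was higher (0.55). Mitotic spindle genes had 18 lower and 1 higher of 24 (median -0.97), including Numa1 (-1.15) and Racgap1 (-1.03). Hmmr was the higher one (0.65, edgeR adjusted p = 0.0498), at below 1 FPKM. It passed in 3 of the 11 alternative analyses that tested it, and leaving out any single library ended the call (adjusted p from edgeR between 0.0582 and 0.326). Stmn1, which dividing cells use too, was not called beside this list, while 7 of 11 cycling markers were lower.

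**Figure D5:**
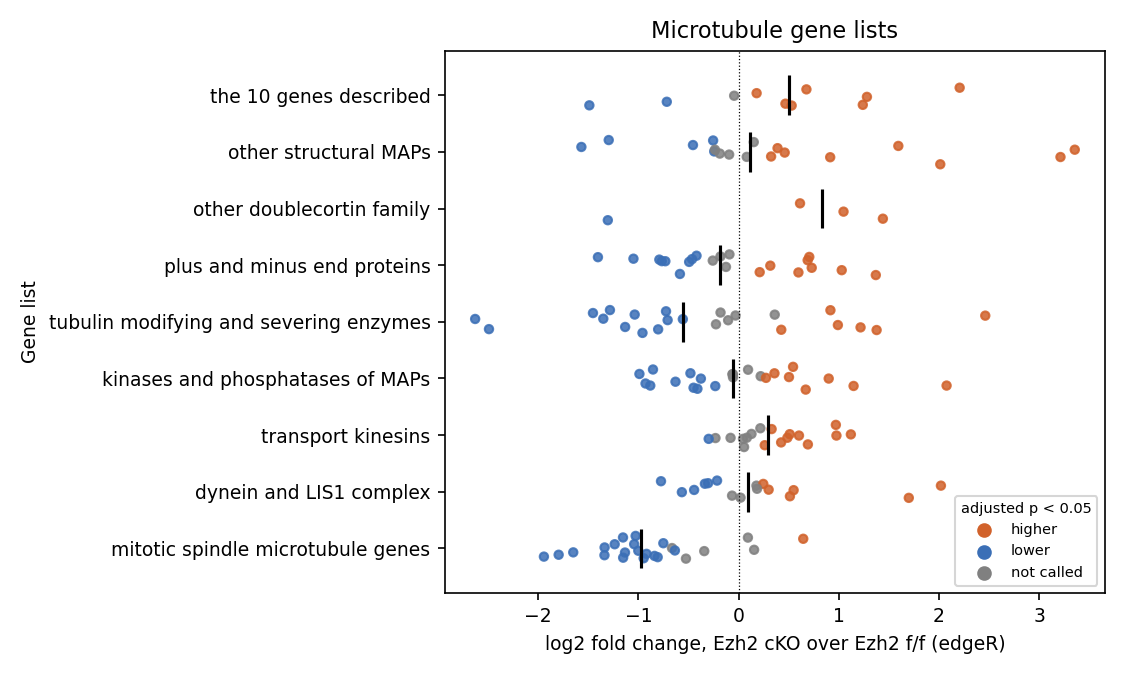
Log2 fold change in Ezh2 cKO over Ezh2 f/f (edgeR) of the 10 genes described and of the tested genes of 8 further microtubule lists, with 1 point per gene, coloured by the call, and a black bar at each list's median. The spindle genes lie mostly to the left (median -0.97) and the transport kinesins mostly to the right (median 0.30), while the enzyme and end-protein lists spread to both sides.

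The genes whose pattern over the 4 libraries was most like that of Map1a were AI413582, Ptprn and Ccdc28a, by the root mean square difference of centred log2 CPM (0.028, 0.032 and 0.043). Those most like Dcx were Cemip2, Cilk1 and Ndc80 (0.020, 0.025 and 0.032). Counts were low for some: Ccdc28a was counted 16 and 21 times in controls, and Ndc80 22 and 27 times in Ezh2 cKO. With 4 libraries such likeness is common: 326 tested genes lay within 0.2 of Map1a and 818 within 0.2 of Dcx.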

How the data were processed

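Per the labels, libraries were made from total RNA of P5 cortical cells, and the submitters' processing notes name Bowtie2 2.2.3, TopHat2 2.0.12, HTSeq 0.6.0 and mm9, without a role or order. The authors deposited counts of reads per gene without normalization, and FPKM values, which scale them to gene length and library total, for 29224 genes. Their table also holds their own comparison (mean level, fold change, p-value and adjusted p-value), which was not used. Sample columns left out: 0. Rows that name no gene: 0.

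Counts were filtered with filterByExpr (16793 genes left), normalized by TMM (factors 0.967 to 1.04) and compared with edgeR 4.0.16 (quasi-likelihood, group as the only term) in R 4.3.3, with Benjamini-Hochberg adjustment over all genes tested and a threshold of 0.05. Standard errors come from the fold change and F statistic, and intervals are at 95%. Alternatives used DESeq2 1.42.0, limma 3.58.1 on log2(FPKM + 1) or log2(FPKM + 0.1) for genes with FPKM of at least 1 in 2 libraries, other scalings and filters, a replicate block and each library left out. On simulated counts with 200 changed genes, edgeR recovered 197 with 5 false calls over 16551 genes and DESeq2 182 with 3. In limma, 169 of 185 were recovered over 13200 genes with 26 false calls. The simulation used a fixed dispersion and raised as many genes as it lowered. It changed only a small part of all genes, whereas 68.4% of tested genes were called in the data. Its false calls therefore do not carry over to that setting. Ratios and figures used Python 3.11.15. Replicates differed beyond counting noise, with a chi-square per degree of freedom of 9.70 (Ezh2 f/f) and 6.10 (Ezh2 cKO).

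The genes described, the lists and the pairs were chosen with earlier results of these data known. From each microtubule list, up to 2 genes called in each direction, those of smallest p, are named, and other genes are named as markers or by likeness. Mapre1, Clip2, Camsap2, Dynlrb1, Dync1i1 and Cdk5r1 were named outside this rule, after their values were seen.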

Additional observations from a re-analysis of the deposited data

How the results depend on the processing

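Over 13 alternative analyses the counts of the 10 genes called higher and lower, of all genes and of the microtubule lists together stayed within 1.5 times the values given. The median log2 fold change of the 10 genes, 0.50, was 0.58 with total counts alone, 0.57 with upper-quartile factors, 0.57 with log2(FPKM + 1) and 0.58 with log2(FPKM + 0.1). The first of these scalings moved the median of all genes to 0.10 from 0.02. Map2, Mapt, Map1a, Dcx, Dclk1, Stmn2, Stmn3 and Stmn4 kept their direction and call in each of the 13. Map1b lost its call in 8. Of Ezh2 and the named genes of the microtubule lists, tried after seeing the data, Hmmr, Kif21b and Dynlrb1 lost their call in some alternatives, and 0 turned direction. Cdk5r1 was not among the genes tried. The sign of Stmn1, -0.04, reversed to 0.040 with total counts alone, 0.030 with upper-quartile factors and 0.044 in both FPKM analyses, and ran from -0.16 to 0.059 on leaving out single libraries (0.059 without Ezh2 f/f replicate 2). Structural proteins called lower were 3 in place of 5 with total counts alone, with upper-quartile factors and in both FPKM analyses. The dynein list had 3 lower in place of 6 with log2(FPKM + 0.1). Transport kinesins called lower numbered 0 to 2, and the single higher spindle gene came to 0 where Hmmr lost its call or was not tested. The cause was not tested.

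The labels link same-numbered libraries only by the number, and whether they were prepared together is not given in the sources used here. Their deviations from group means had r = 0.130 across genes, which cannot settle it. With the replicate block, 5795 genes were higher and 5599 lower, and Map1b was no longer called (0.18, edgeR adjusted p = 0.0956). With 1 library left in a group, that library is assumed to vary like the others.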
